A study of Mus musculus with 16 samples.

Results

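The 9 genes described here carry the signal of leukaemia inhibitory factor (LIF) in mouse embryonic stem cells: the receptor genes Lifr and Il6st, the kinase genes Jak1 and Jak2, the transcription factor gene Stat3, and the feedback and target genes Socs3, Pim1, Pim3 and Gbx2. They were chosen by gene symbol, from what is known of the pathway and with earlier results of these data known. The choice was among 32826 genes listed in at least 1 of 3 deposited count tables, and all 9 were listed in each table. LIF binds LIFR, which pairs with gp130, the product of Il6st. The Janus kinases bound to the receptor chains then phosphorylate each other, the receptors and STAT3, which enters the nucleus and binds DNA as a dimer. Among its targets is Socs3, whose product blocks the receptor complex, and the pathway is known for holding embryonic stem cells in a self-renewing state.

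The cells were E14 mouse embryonic stem cells kept in serum with 1500 U/ml LIF, 3 uM CHIR99021, a GSK3 inhibitor, and 1 uM PD0325901, a MEK inhibitor, so each group was measured under constant LIF. Every line, WT included, had auxin for 24 h, which triggers the breakdown of proteins tagged with an auxin-inducible degron (AID). RNA made in the last 15 min was labelled with 4-thiouridine (4sU) and pulled out of the total RNA, so a 4sU value reports newly made RNA and not the standing pool. The groups were AID-Tada3 (project 1), AID-Yeats2 and Supt7l-/- (project 2) and AID-Zzz3 (project 3), each with 2 clones and compared with the 2 WT 4sU libraries of its own sequencing project. Total RNA of the 2 WT lines was sequenced in project 1. Tada3 belongs to a module shared by the coactivator complexes SAGA and ATAC, Supt7l to SAGA, and Yeats2 and Zzz3 to ATAC. The AID lines lose a protein by degradation, whereas Supt7l-/- is a gene knockout, so the kinds of lesion differ. In each project WT replicate 1 is the plain line and WT replicate 2 overexpresses (o/e) Tir1, the auxin receptor that AID degradation needs, and BirA, a biotin ligase. The parent line of each mutant clone was not given in the sources used here. P-values measure the spread between these clones and lines.

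The 14 4sU libraries held 8268061 to 15994518 mouse gene counts and the 2 total RNA libraries 4903998 and 6378707. Values below are CPM, gene counts brought to a common library size, with TMM scaling, which sets the bulk of mouse genes to no change. An external spike-in of labelled cells came from another species, the fly line S2 in project 1 and fission yeast (S. pombe) in the later 2 projects. Scaling by spike-in counts instead moved the median log2 fold change of all genes to -0.16 in AID-Tada3, -0.50 in AID-Yeats2, -0.36 in Supt7l-/-, -0.36 in AID-Zzz3 and -0.11 between the WT lines. Directions given below are therefore relative to other mouse genes. Of the targeted genes, Tada3 had 12.4 and 10.7 CPM in its clones (WT 31.8 and 24.4), Yeats2 109 and 188 (WT 242 and 256), Supt7l 8.87 and 14.1 (WT 13.9 and 14.3) and Zzz3 288 and 299.8 (WT 430 and 448). Supt7l-/- replicate 2 thus stood within WT, and since a degron acts on protein and the deleted stretch is not given, these counts do not check the loss. All 9 embryonic stem cell markers examined were counted in every 4sU library, with sums of 2451 to 3002 CPM. Sums for 5 primitive endoderm markers were 4.20 to 9.91 CPM and those for 6 fibroblast or feeder markers 0.25 to 11.2 CPM. For 5 primed or formative markers they were 59.4 to 90.8 CPM and for 2 neural markers 10.4 to 27.8 CPM. Both AID-Tada3 clones lay above WT in neural markers (18.66 and 18.65 against 10.4 and 14.9 CPM). They lay below WT in primitive endoderm and in fibroblast or feeder markers. Both AID-Zzz3 clones lay above WT in primitive endoderm markers (5.63 and 6.65 against 4.44 and 4.20 CPM). The part of these markers in the members' values was not tested. In bulk RNA, fewer cells of a type and less RNA per cell cannot be told apart. The scarcest member was Gbx2, with 24 to 149 raw counts per 4sU library. For the other members the lowest raw count was 73 (Pim3) and the highest 4125 (Il6st), and all 9 passed the count filter in each comparison.

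In mm10, the build of the deposited tables, the receptor genes lie at chr15:7090614-7197489 (Lifr, ENSMUSG00000054263, plus strand) and chr13:112464070-112510086 (Il6st, ENSMUSG00000021756, plus). The kinase genes lie at chr4:101152367-101265282 (Jak1, ENSMUSG00000028530, minus) and chr19:29251828-29313080 (Jak2, ENSMUSG00000024789, plus). Stat3 (ENSMUSG00000004040, minus) lies at chr11:100885098-100939540 and Socs3 (ENSMUSG00000053113, minus) at chr11:117966079-117970047. Pim1 (ENSMUSG00000024014, plus) lies at chr17:29490812-29496111, Pim3 (ENSMUSG00000035828, plus) at chr15:88862186-88865726 and Gbx2 (ENSMUSG00000034486, minus) at chr1:89927956-89931179. Counts were given per gene.

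The promoters below belong to Jak1, Jak2, Socs3 and Pim1, the 4 members whose change differed between AID-Yeats2 and Supt7l-/-. Each was read from the RefSeq promoter table of build GRCm38.p6, is written 5′ to 3′ on the gene's own strand, starts 250 bases before the RefSeq start and stops at that start or, if earlier, before any base of the window that GENCODE M21 lists as exon. The Socs3 window lies inside the Socs3 span given above, in an intron of a GENCODE M21 transcript that starts farther upstream, and the other 3 lie outside the spans of their own genes. Capitals mark a match to TTCNNNGAA, the paired half-site form bound by STAT proteins, or to CCAAT, the box bound by NF-Y.
Socs3 (chr11:117969452-117969616, minus strand): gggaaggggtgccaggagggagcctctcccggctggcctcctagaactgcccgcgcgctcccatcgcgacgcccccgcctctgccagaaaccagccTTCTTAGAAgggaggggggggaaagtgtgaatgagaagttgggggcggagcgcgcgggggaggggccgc
Pim1 (chr17:29490535-29490752, plus strand): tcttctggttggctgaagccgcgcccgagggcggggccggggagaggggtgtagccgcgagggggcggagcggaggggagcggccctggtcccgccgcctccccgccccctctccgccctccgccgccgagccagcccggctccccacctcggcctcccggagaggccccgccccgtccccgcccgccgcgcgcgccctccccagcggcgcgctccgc
Jak1 (chr4:101265283-101265473, minus strand): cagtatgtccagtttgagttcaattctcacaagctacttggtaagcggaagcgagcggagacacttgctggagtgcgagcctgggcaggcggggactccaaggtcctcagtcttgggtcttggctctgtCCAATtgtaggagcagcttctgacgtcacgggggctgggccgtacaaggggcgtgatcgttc
Jak2 (chr19:29251553-29251802, plus strand): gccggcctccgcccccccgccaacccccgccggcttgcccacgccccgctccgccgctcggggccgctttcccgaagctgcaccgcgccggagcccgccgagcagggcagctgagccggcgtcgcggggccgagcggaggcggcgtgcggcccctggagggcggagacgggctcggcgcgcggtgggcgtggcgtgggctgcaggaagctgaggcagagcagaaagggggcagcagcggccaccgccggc
The Socs3 match, TTCTTAGAA, begins 154 bases before the RefSeq start, and the CCAAT of Jak1 begins 121 bases before it. In the 250 bases before each start, the palindrome TTCNNNGAA stood in 7.02% of 32851 mouse promoters and in 1 of the 11 promoters listed for the 9 members, that of Socs3 (Lifr and Pim1 have 2 each). CCAAT or its complement ATTGG stood in 33.8% of promoters and in 5 of the 11, with 1 each for Il6st, Jak1, Lifr, Pim3 and Stat3. TATAAA or its complement TTTATA stood in 12.4% of promoters and in 0 of the 11. Of the 14 other reported STAT3 targets with a promoter in the table, 3 held TTCNNNGAA (Icam1, Kdm3a and Zfp36), as did 1 of 24 other receptor and regulator genes (Gab1). Over the full 250 bases before the start, G and C made up 82.4% for Pim1, 80.8% for Jak2, 71.6% for Socs3 and 61.2% for Jak1. The median over all promoters was 52.4%, and 74.8% of promoters lay below Jak1. The printed stretches of Socs3, Pim1 and Jak1 are shorter than 250 bases. Pim1 has a second promoter in the table, not shown, with 48.0%. The matches describe letters in these windows. Binding was not measured.

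In WT cells Il6st and Lifr, the receptor chains, gave the most newly made RNA counts and Gbx2, a homeobox gene known as a STAT3 target, the fewest. Over the 6 WT 4sU libraries Il6st stood at 216.5 ± 25.4 CPM (SD) and Lifr at 194 ± 31.6, with overlapping ranges (185 to 257 and 141 to 222). Stat3 followed at 108 ± 6.52 and Jak1 at 98.2 ± 9.05, which also overlapped each other. Lifr lay above Stat3 in all 6 libraries. The feedback and target genes and Jak2 were lower: Pim1, a serine/threonine kinase gene, at 36.4 ± 3.01, Jak2 at 29.0 ± 2.96, Socs3 at 24.98 ± 3.87, its relative Pim3 at 13.8 ± 3.81 and Gbx2 at 6.81 ± 2.28. Neighbours in this order did not overlap at 3 places only: Lifr above Stat3, Jak1 above Pim1, and Socs3 above Pim3.

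Counts grow with gene length, and the members span 3224 bases (Gbx2) to 112916 bases (Jak1). Per kb of gene span, the WT 4sU levels ran in another order, with Pim1 (6.86 ± 0.567 CPM per kb) and Socs3 (6.29 ± 0.974) first, then Il6st (4.70), Pim3 (3.88), Gbx2 (2.11), Stat3 (1.99) and Lifr (1.82). The kinase genes stood last, Jak1 at 0.87 and Jak2 at 0.473 CPM per kb. The ranges of Lifr, Jak1 and Jak2 did not overlap each other, and all other neighbours in this order did overlap. Per kb of the exon union of GENCODE M21, a scale chosen after the data were seen, Il6st (19.5) and Lifr (18.0) led and Gbx2 (3.13) was last. Per kb of the deposited median transcript length Jak1 (155.9) and Stat3 (144.5) led. Thus the order between genes depended on the length used, and whether reads in introns were counted is not given in the sources used here.

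**Figure D1:**
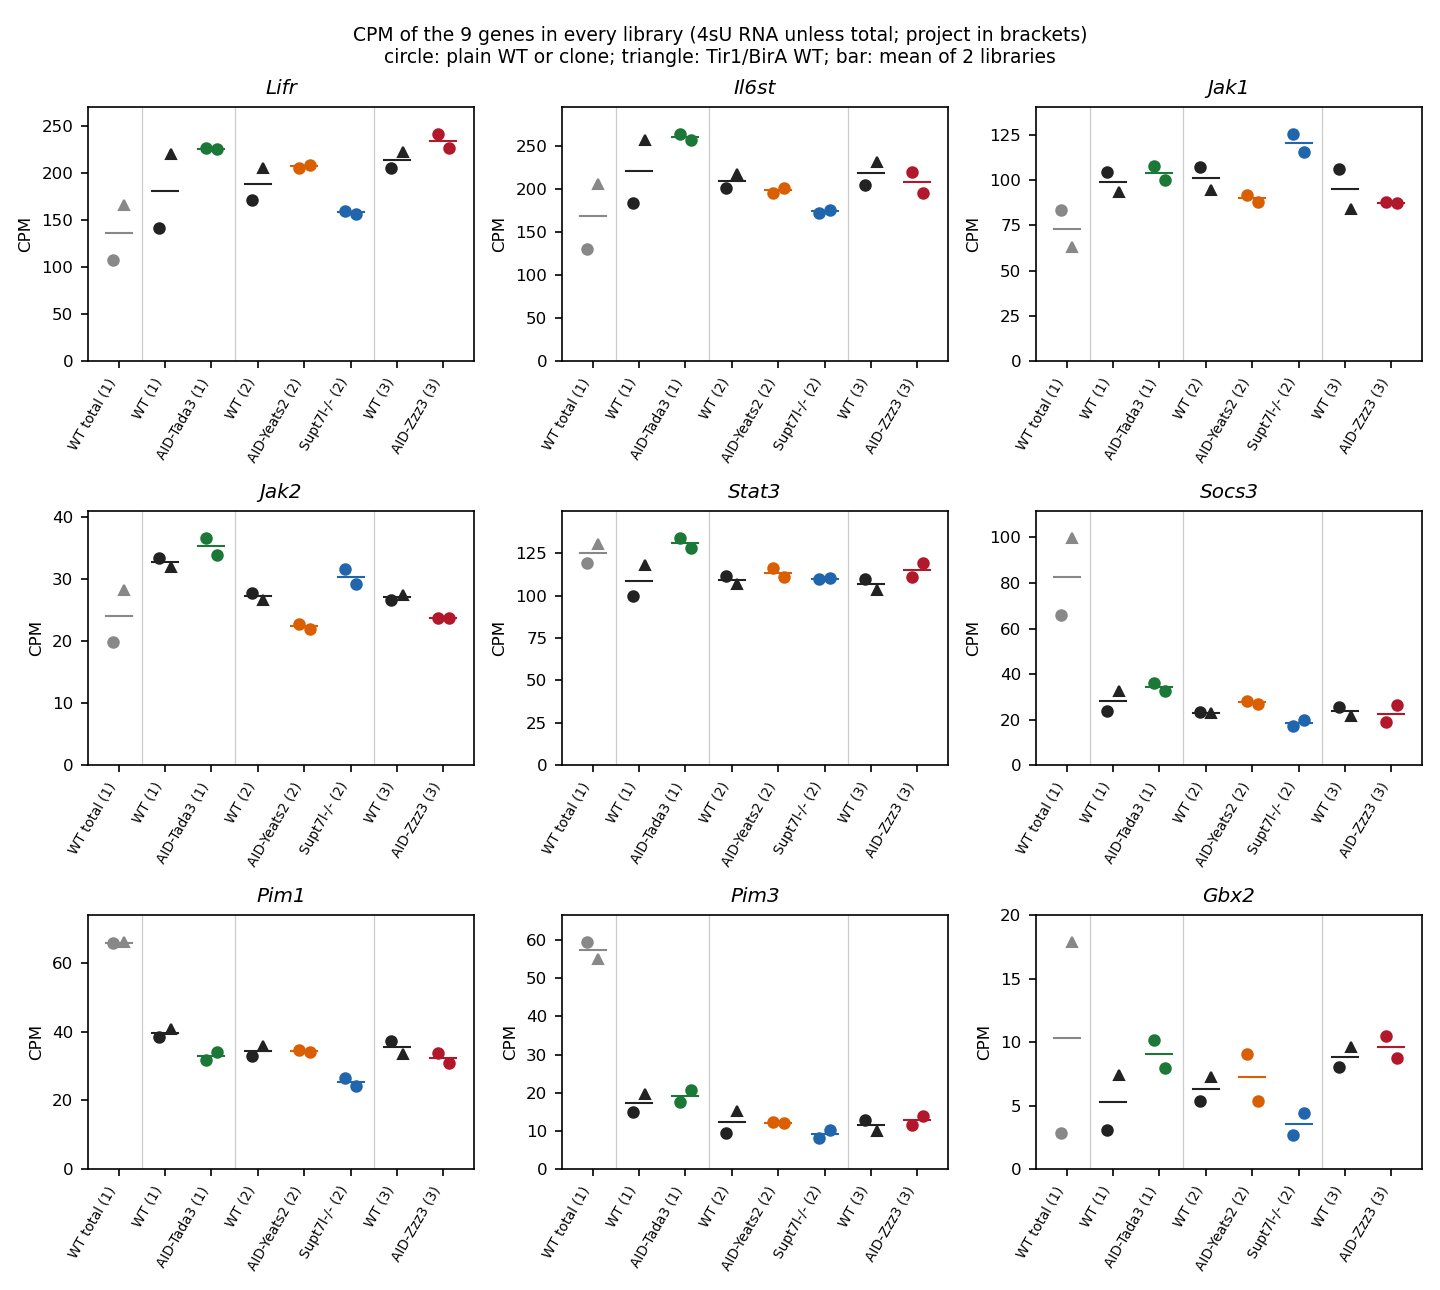
CPM (y axis, from 0) of the 9 genes in all 16 libraries, grouped by genotype with the project in brackets. Points are single libraries (triangles: the Tir1/BirA WT line) and bars the mean of 2. Socs3, Pim1 and Pim3 are highest in total RNA, Il6st and Lifr are the highest 4sU series, and in project 2 the Supt7l-/- points of Lifr, Il6st, Pim1 and Socs3 lie below WT.

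Newly made and total RNA of the same WT lines separated the short feedback genes from the receptor and kinase genes. Pim3 had 15.0 and 19.8 CPM in 4sU RNA (plain and Tir1/BirA line) and 59.4 and 55.1 CPM in total RNA. Socs3 had 23.9 and 32.5 CPM in 4sU RNA against 66.0 and 99.7 in total RNA. Pim1 had 38.4 and 40.6 CPM against 65.7 and 65.9. In all 3 genes both 4sU libraries lay below both total RNA libraries. The log2 fold changes of 4sU over total RNA were -1.70 ± 0.19 (SE, n = 2 per group) for Pim3, -1.53 ± 0.24 for Socs3 and -0.72 ± 0.15 for Pim1, with adjusted p of 2.15e-04, 9.42e-04 and 0.00377 (edgeR's quasi-likelihood test, Benjamini-Hochberg over 14494 genes, as for each adjusted p below unless another tool is named). The Pim1 call was lost without WT 4sU replicate 1 (-0.62, adjusted p = 0.06, edgeR).

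The receptor and kinase genes stood higher in 4sU RNA by similar amounts. They did not pass the main test, which leaves out the pairing by line, and passed with that pairing (below). Values were 0.43 ± 0.26 for Lifr, 0.41 ± 0.24 for Il6st, 0.45 ± 0.18 for Jak1 (adjusted p = 0.0621, edgeR) and 0.46 ± 0.20 for Jak2 (adjusted p = 0.0711, edgeR). Jak1 had 104 and 93.6 CPM in 4sU RNA against 83.2 and 62.9 in total RNA, and Jak2 33.5 and 32.0 against 19.8 and 28.3, so neither gene overlapped. Lifr and Il6st overlapped, because the Tir1/BirA line was high in both kinds of RNA. Stat3, with -0.18 ± 0.15, had 99.5 and 118 CPM against 119 and 131. Thus 3 of 9 members were called lower and 0 higher, against 33.0% of all genes lower and 30.4% higher (63.4% in all). At an unadjusted p under 0.05 there were 5 of 9 (67.4% of all genes). DESeq2 also called 3 lower and 0 higher. The groups hold the same 2 lines, and with the line as a replicate block 4 members were called lower and 4 higher, adding Gbx2 (adjusted p = 0.00446, edgeR) on one side and Jak1 (0.00103), Il6st (0.00224), Lifr (0.00241) and Jak2 (0.00802) on the other. With the block 37.2% of all genes were called lower and 36.5% higher. Without a filter on low counts Jak1, Lifr, Il6st and Jak2 were also called higher and 3 members lower, where 19.1% of 26491 genes were called higher and 18.9% lower.

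Gbx2 had 3.07 and 7.47 CPM in 4sU RNA against 2.86 and 17.9 CPM in total RNA. Its value of -0.97 ± 0.84 turned to 0.83 without WT total replicate 2, the Tir1/BirA line, and was -1.79 without WT total replicate 1, a value then called (adjusted p = 0.037, edgeR), as it was without WT 4sU replicate 2 (-1.71, adjusted p = 0.00167, edgeR). An antisense transcript, D130058E05Rik, overlaps Gbx2 and had 93, 64 and 78 counts over the 4sU libraries of projects 1, 2 and 3, against 1163 for Gbx2 over all of them. Gm26885, antisense to Pim1, had 299, 182 and 197 counts against 5479. The library kit keeps strand, but whether strand was used in counting is not given, so reads of such partners may be mixed.

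Across 12749 protein-coding genes the 4sU over total value ran with gene span (Spearman's rho 0.72, a description across genes of the same 4 libraries). Its median was -2.23 for spans up to 5 kb, -1.52 from 5 to 10 kb, -0.32 from 10 to 50 kb, 0.74 from 50 to 100 kb and 1.38 above. Set against genes of their own span class, Socs3, Pim3 and Gbx2 (3969, 3541 and 3224 bases) lay above the median, as did Pim1 (5300 bases) and Il6st (46017 bases). Stat3 (54443 bases), Jak2 (61253), Lifr (106876) and Jak1 (112916) lay below it. Lifr, Jak1 and Stat3 lay below the lower quartile of their classes, 0.95 for the longest genes and 0.22 for spans of 50 to 100 kb, and Il6st, Pim1 and Gbx2 above the upper quartile, at 0.34, -0.73 and -1.24. The part of gene span in the difference between the feedback genes and the kinases was not tested.

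**Figure D2:**
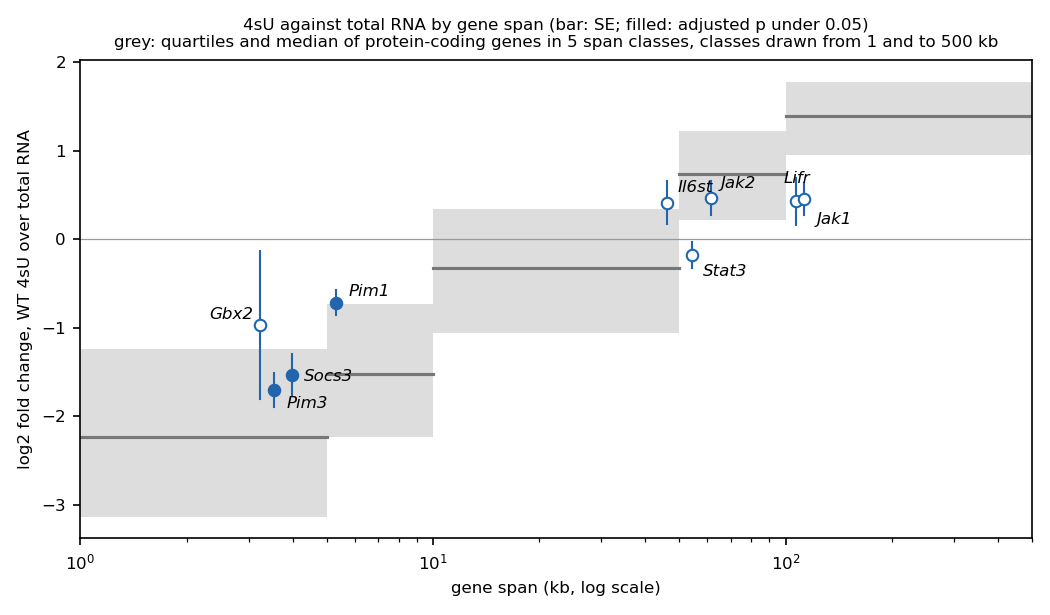
Log2 fold change of WT 4sU over WT total RNA (y axis) against gene span in kb (x axis, log scale) for the 9 genes (points with SE; filled where called), over the quartiles (grey) and median (line) of protein-coding genes in 5 span classes. Gbx2, Pim1 and Il6st sit above the grey band of their class, and Stat3, Lifr and Jak1 below it.

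Of all genes 30.4% were called higher in 4sU than in total RNA and 33.0% lower. Among 29 tested of 32 other receptor, kinase, STAT and regulator genes, 10 were higher and 9 lower in 4sU than in total RNA. Those with the smallest p were the adaptor gene Grb2 (2.64), Pias1 and Pias2 (1.96 and 1.51), which encode SUMO ligases, Stat6 (-2.60) and the kinase gene Tyk2 (-1.51). Of 17 tested among 20 other reported STAT3 targets, 3 were higher and 6 lower, with Junb (-2.54), Icam1 (-1.77) and Sall4 (-1.39) lower and Smad7 (1.75) and Klf5 (1.58) higher. Both directions occurred in each list, and the medians were -0.08 and -0.31 against 0.05 for all genes.

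Between the 2 WT lines, Gbx2, Lifr, Il6st and Jak1 differed in the same direction in every project, without passing the test. The share of all genes that kept 1 direction was not counted, so this is a description of the 4 genes. Lifr read 141, 172 and 205 CPM in the plain line in projects 1, 2 and 3, and 220, 205 and 222 CPM in the Tir1/BirA line. Il6st read 185, 202 and 206 CPM in the plain line, against 257, 218 and 232. Gbx2 read 3.07, 5.41 and 8.02 CPM in the plain line and 7.47, 7.27 and 9.62 in the other. For these 3 genes the Tir1/BirA line was the higher one in 3 of 3 projects. Jak1 went the other way in 3 of 3, with 104, 107 and 106 CPM in the plain line against 93.6, 94.7 and 84.0. Total RNA of project 1 is of the same 2 lines and the same project, so it is no separate replicate. It showed the same 4 directions, Lifr with 108 against 165 CPM, Il6st with 131 against 206, Gbx2 with 2.86 against 17.9, and Jak1 with 83.2 against 62.9.

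Tested over the 6 WT 4sU libraries with the project as a block, 0 of 9 passed (edgeR), where 1.24% of 14181 genes did (0.437% higher and 0.804% lower). At an unadjusted p under 0.05 there were 4 (14.0% of all genes), and DESeq2 called 0. Log2 differences of the Tir1/BirA line from the plain line were 0.33 ± 0.10 for Lifr (adjusted p = 0.173, edgeR), 0.25 ± 0.08 for Il6st (0.2), -0.23 ± 0.08 for Jak1 (0.207) and 0.63 ± 0.22 for Gbx2 (0.215). Pim3 stood at 0.25 ± 0.19, with 0.39, 0.69 and -0.35 in projects 1, 2 and 3. Jak2 (-0.03), Stat3 (0.03), Pim1 (0.01) and Socs3 (0.07) had values near 0, of which those of Stat3, Socs3 and Pim1 turned negative with spike-in scaling. Jak1 passed once spike-in counts set the scale (-0.33, adjusted p = 0.0443, edgeR) and without the WT libraries of project 1 (-0.26, adjusted p = 0.0467, edgeR). The size of the line difference was not the same in each project: for Lifr it was 0.64, 0.26 and 0.11 in projects 1, 2 and 3, and for Gbx2 1.28, 0.43 and 0.26. Among the other lists 1 gene was called, the STAT3 target Pramel7, which was lower in the Tir1/BirA line by 2.03 ± 0.23 (adjusted p = 0.00615, edgeR), with 6.97, 6.38 and 4.78 CPM against 1.53, 1.71 and 1.21. That call was lost without the libraries of project 2 (-2.09, adjusted p = 0.107, edgeR). Because WT replicate 1 and WT replicate 2 are different lines, this difference is also the WT spread of each mutant comparison below.

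**Figure D3:**
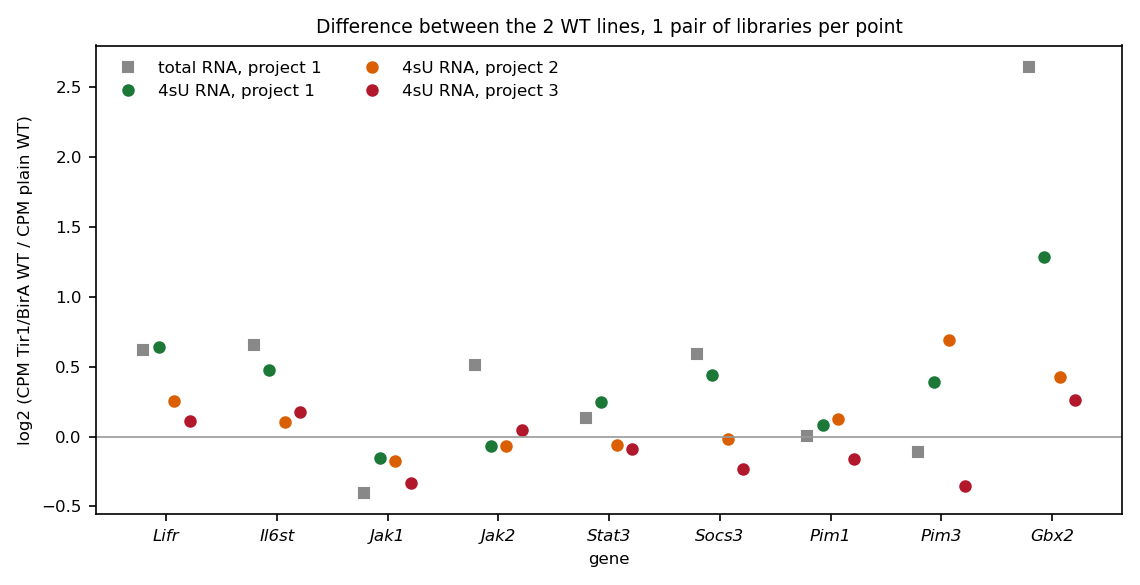
Log2 ratio of CPM, Tir1/BirA WT over plain WT (y axis), for the 9 genes (x axis), with 1 point per pair of libraries: squares total RNA, circles 4sU RNA by project. All 4 points of Lifr, Il6st and Gbx2 are above 0 and all 4 of Jak1 below, while Jak2, Stat3, Socs3, Pim1 and Pim3 lie on both sides.

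AID-Tada3 cells showed no member past the threshold. Lifr had 226 and 225 CPM in the clones and 141 and 220 in WT. Il6st had 264 and 257.3 against 185 and 257.0. Stat3 had 134 and 128 against 99.5 and 118. In all 3 genes both clones lay above both WT libraries, though for Lifr and Il6st only just above the Tir1/BirA line and far above the plain line. Gbx2 had 10.2 and 7.99 CPM in the clones and 3.07 and 7.47 in WT, and Socs3 36.0 and 32.50 against 23.9 and 32.45, again with the Tir1/BirA line nearest to the clones. Pim1 was the single member with both clones below WT, 31.7 and 34.1 against 38.4 and 40.6 CPM.

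Stat3 (0.27 ± 0.10, adjusted p = 0.561) and Pim1 (-0.27 ± 0.11, adjusted p = 0.565) had the smallest p among the members (edgeR). The others read 0.79 ± 0.40 for Gbx2, 0.32 ± 0.22 for Lifr, 0.28 ± 0.15 for Socs3, 0.24 ± 0.15 for Il6st, 0.14 for Pim3, 0.11 for Jak2 and 0.07 for Jak1. With spike-in scaling those of Pim3, Jak2 and Jak1 turned to -0.0026, -0.057 and -0.095, where 1.48% of all genes were called lower and 0 members were. EdgeR called 0 of 9, where 0.0331% of 15099 genes were called (0.0% higher and 0.0331% lower). At an unadjusted p under 0.05 there were 2 (8.0% of all genes), and DESeq2 called 0. In 6 members both clones exceeded both WT libraries (19.5% of all genes did) and in 1 both fell short of them (20.0% of all genes). The median log2 fold change was 0.24 over the 9 members and -0.0046 over all genes.

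The values of this comparison depended on which WT line was used. Against the plain line alone (without WT replicate 2) 5 members were called higher, Gbx2 (1.56), Lifr (0.68), Socs3 (0.52), Il6st (0.50) and Stat3 (0.40), with adjusted p from 8.37e-11 to 0.00205 (edgeR), where 6.56% of all genes were called higher and 6.31% lower. Against the Tir1/BirA line alone (without WT replicate 1) 0 were called, where 0.476% of all genes were called higher and 0.553% lower, and these genes had 0.28, 0.04, 0.08, 0.02 and 0.15. The lone WT library is assumed to vary like the clones in these fits. Pramel7, which differed between the WT lines, had 0.82 and 0.75 CPM in the AID-Tada3 clones, below the 6.97 CPM of the plain and the 1.53 CPM of the Tir1/BirA line. In project 2 it had 5.47 and 5.79 CPM in AID-Yeats2 and 13.5 and 10.5 in Supt7l-/-, against 6.38 (plain) and 1.71 (Tir1/BirA). In AID-Zzz3 it had 2.04 and 3.74 CPM, between the 4.78 of the plain and the 1.21 of the Tir1/BirA line. The part of the line difference in the AID-Tada3 values was not tested. The authors' deposited table gave the members log2 fold changes of -0.33 (Pim1) to 0.24 (Gbx2) and called none, with 16 genes called lower (0.0559% of those with an adjusted p) and 2 higher.

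In Supt7l-/- cells the receptor gene Il6st was called lower relative to other mouse genes, where 2.02% of all genes were called lower. This call was lost in several other fits (below). Il6st had 173 and 176 CPM in the clones against 202 and 218 in WT (-0.27 ± 0.07 on the log2 scale, adjusted p = 0.0476, edgeR). Lifr, its partner, had 160 and 156 CPM against 172 and 205 (-0.25 ± 0.08, adjusted p = 0.116, edgeR). Pim1 had 26.5 and 24.1 CPM against 32.8 and 35.7 (-0.44 ± 0.11, adjusted p = 0.0519, edgeR). Both clones lay below both WT libraries in these 3 genes. The same held for Socs3, with 17.2 and 19.9 CPM against 23.2 and 22.9 (-0.31 ± 0.13), and Gbx2, with 2.73 and 4.42 against 5.41 and 7.27 (-0.81 ± 0.32, adjusted p = 0.194, edgeR).

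The kinase genes lay on the other side. Jak1 had 125 and 115 CPM in the Supt7l-/- clones against 107 and 94.7 in WT (0.25 ± 0.08, adjusted p = 0.126, edgeR), and Jak2 had 31.6 and 29.2 against 27.8 and 26.6 (0.16 ± 0.12). Both clones were above both WT libraries in each. Stat3 had 110 and 111 CPM against 111 and 107, with 0.01 ± 0.07 and a 95% interval of -0.15 to 0.17. Pim3 had 8.30 and 10.2 CPM against 9.47 and 15.3, which overlapped (-0.41 ± 0.22). Relative to spike-in counts the values of Jak1, Jak2 and Stat3 turned to -0.11, -0.21 and -0.35, next to a median of -0.36 for all genes.

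Of the 9 members, 1 was called lower and 0 higher, against 2.02% and 1.32% of 14513 genes (3.33% in all). At an unadjusted p under 0.05 there were 6, Lifr, Il6st, Jak1, Socs3, Pim1 and Gbx2 (18.3% of all genes), and DESeq2 called 0. Both clones lay below both WT libraries in 5 members and above in 2, against 24.4% and 24.0% of all genes. The call of Il6st was lost under spike-in scaling (-0.63, adjusted p = 0.0836, edgeR), with DESeq2 (adjusted p = 0.137), in the joint fit of all 14 libraries (0.33) and without WT replicate 2 (0.065) or Supt7l-/- replicate 1 or 2 (0.333 and 0.273), with log2 values of -0.63 to -0.21 in those fits. Against the Tir1/BirA line alone 5 members were called lower, Lifr, Il6st, Pim1, Pim3 and Gbx2, and Jak1 higher, where 8.91% of all genes were called lower and 8.46% higher. Against the plain line alone 0 were called, where 2.65% of all genes were called lower and 1.67% higher. Under spike-in scaling the members called lower were Gbx2 (-1.16, adjusted p = 0.0219, edgeR) and Pim1, against 4.45% of all genes. The authors' deposited table called Il6st (-0.57), Lifr (-0.56) and Pim1 (-0.71) lower, against 8.86% of the genes with an adjusted p there. Summed embryonic stem cell markers were 2495 and 2451 CPM in the Supt7l-/- clones against 2779 and 2953 in WT. These sums include Tfcp2l1, also listed as a STAT3 target, with 1020 and 986 CPM in the clones against 1142 and 1224 in WT. The sums are thus no separate or broad measure of cell state, and the part of the markers in the members' values was not tested.

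AID-Yeats2 cells showed no member past the threshold. Both clones lay below WT in 3 members and above in 2, near the shares of all genes given in the next paragraph. Jak2 had 22.8 and 22.0 CPM against 27.8 and 26.6 in WT (-0.28 ± 0.12, adjusted p = 0.181, edgeR), and Jak1 91.6 and 88.0 against 107 and 94.7 (-0.17 ± 0.09). Socs3 had 28.2 and 27.0 CPM against 23.2 and 22.9 (0.26 ± 0.12, adjusted p = 0.242, edgeR). Lifr had 205 and 208 CPM against 172 and 205 (0.14 ± 0.08). In none of these 4 did the clones overlap WT, and Il6st, with 196 and 201 CPM against 202 and 218 (-0.08 ± 0.07), also lay just below. Stat3 (116 and 111 against 111 and 107), Pim1 (34.5 and 34.1 against 32.8 and 35.7), Pim3 (12.3 and 12.2 against 9.47 and 15.3) and Gbx2 (9.09 and 5.38 against 5.41 and 7.27) overlapped WT.

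EdgeR called 0 of 9 in AID-Yeats2, where 7.24% of 14513 genes were called (3.92% higher and 3.32% lower). At an unadjusted p under 0.05 there was 1, Jak2 (21.3% of all genes), and DESeq2 called 0. Both clones lay above WT in 2 members (25.3% of all genes) and below in 3 (25.8%). Relative to spike-in counts, the values of all 9 were negative, from -0.78 for Jak2 to -0.24 for Socs3. Jak2, Jak1 and Il6st were then called lower, against 23.5% of all genes, and Lifr (-0.36), Stat3 (-0.44), Socs3, Pim1 (-0.49) and Gbx2 (-0.33) had turned from positive to negative. The authors' deposited table called Jak2 (-0.68), Jak1 (-0.61), Il6st (-0.52) and Stat3 (-0.40) lower, where 48.9% of the genes with an adjusted p were called lower. Against the plain line alone Lifr (0.27, adjusted p = 0.00355) was called higher and Jak1 (-0.25, adjusted p = 0.0346) lower (edgeR), where 6.67% of all genes were called higher and 6.24% lower. Fibroblast or feeder markers summed to 1.117 CPM in one AID-Yeats2 clone and 11.2 CPM in the other, against 7.05 in both WT libraries. Both clones lay above both WT libraries in summed primed or formative markers (87.2 and 78.8 against 64.65 and 65.4 CPM) and primitive endoderm markers (9.91 and 7.01 against 5.22 and 5.66), and below them in neural markers (12.6 and 14.2 against 18.65 and 18.2). The part of these markers in the members' values was not tested.

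Upstream of the members, Lif itself, the ligand gene, rose in AID-Yeats2, from 4.16 and 4.06 CPM in WT to 7.75 and 6.60 (0.80 ± 0.22, adjusted p = 0.0458, edgeR). The Supt7l-/- clones had 6.37 and 7.37 CPM (0.74 ± 0.23, adjusted p = 0.0948, edgeR) and the AID-Zzz3 clones 6.94 and 6.65 against 4.35 and 3.74 in their WT (0.74 ± 0.23, adjusted p = 0.244, edgeR). In all 3 mutants both clones lay above WT, as in 25.3% (AID-Yeats2), 24.0% (Supt7l-/-) and 22.8% (AID-Zzz3) of all genes. AID-Tada3 had 6.54 and 6.55 CPM, within its WT (6.84 and 5.51). The Lif call was lost with spike-in scaling (0.30, adjusted p = 0.464, edgeR), DESeq2 (adjusted p = 0.208), and without WT replicate 2 (0.0527) or AID-Yeats2 replicate 1 (0.354) or 2 (0.12). Gab1, an adaptor that links the receptors to other kinases, fell from 629 and 593 to 472 and 471 CPM (-0.37 ± 0.06, adjusted p = 0.00208, edgeR), a call lost without AID-Yeats2 replicate 1 (adjusted p = 0.0551). Icam1, an adhesion molecule gene, rose from 31.5 and 26.9 to 42.3 and 40.7 CPM (0.50 ± 0.12, adjusted p = 0.0178, edgeR), which went to 0.01 with spike-in scaling and was not called without AID-Yeats2 replicate 1 (0.19) or 2 (0.102). These were the genes called among 30 tested receptor and regulator genes (1 higher, 1 lower) and 17 tested STAT3 targets (1 higher). Of all genes 7.24% were called in AID-Yeats2 (3.92% higher and 3.32% lower), near the shares called in these lists. In Supt7l-/- 2.02% of all genes were called lower and 1.32% higher. The lists held 1 call there, Tfcp2l1, a naive pluripotency factor gene (1020 and 986 against 1142 and 1224 CPM, -0.24 ± 0.06, adjusted p = 0.0429, edgeR). It was lost under spike-in scaling, with the stricter count filter, with DESeq2, in the joint fit and without either clone (adjusted p of 0.0515 to 0.345).

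**Figure D4:**
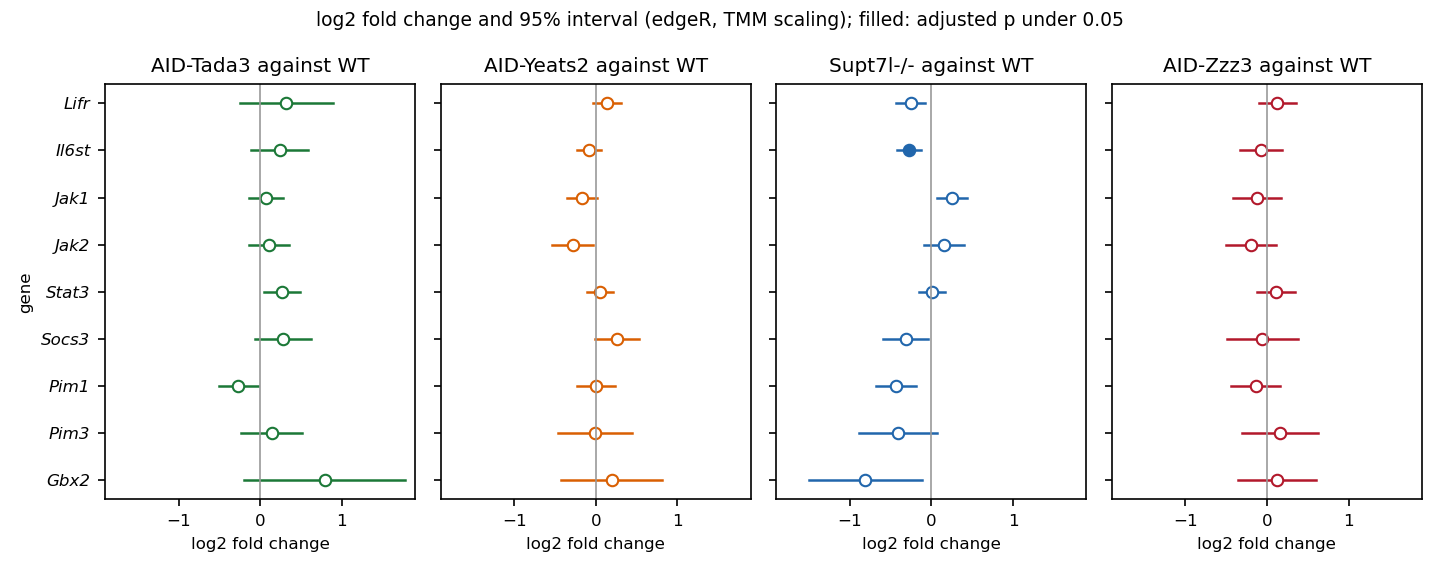
Log2 fold change of each mutant against WT (x axis, points with 95% intervals) for the 9 genes (y axis), 1 panel per mutant, with TMM scaling. The single filled point, past adjusted p 0.05, is Il6st in Supt7l-/- at -0.27, and the intervals of Gbx2 are the widest.

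Set against each other, AID-Yeats2 had lower kinase genes (Jak1 and Jak2) and higher feedback and target genes (Socs3 and Pim1) than Supt7l-/-. Both share the WT libraries of project 2, which cancel in the difference between the effects, AID-Yeats2 minus Supt7l-/-. This was tested with all 14 4sU libraries fitted together. It was -0.43 ± 0.11 for Jak1 (adjusted p = 0.0201) and -0.44 ± 0.11 for Jak2 (adjusted p = 0.0171), and 0.57 ± 0.17 for Socs3 (adjusted p = 0.0484) and 0.44 ± 0.11 for Pim1 (adjusted p = 0.0214), all edgeR over 15426 genes. These were the members called, 2 higher and 2 lower, where 5.59% of all genes were called higher and 4.71% lower (10.3% in all, and 25.4% at an unadjusted p under 0.05). In Jak1, Jak2 and Socs3 the 2 WT libraries lay between the clones of the 2 mutants, and in Pim1 the AID-Yeats2 clones lay within WT and the Supt7l-/- clones below. Jak1 stood at 90.8% and 87.3% of the WT mean in the AID-Yeats2 clones and at 124% and 114% in the Supt7l-/- clones, and Socs3 at 122% and 117% against 74.6% and 86.4%.

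Lifr (0.38 ± 0.16, adjusted p = 0.148) and Gbx2 (1.00 ± 0.42, adjusted p = 0.151) had the same sign as Socs3 without passing (edgeR), Il6st was at 0.19 ± 0.12, and the interval of Stat3 ran from -0.15 to 0.23. Fitted on project 2 alone, an alternative chosen after the data were seen, Lifr (adjusted p = 0.00535) and Gbx2 (0.046) were called too, which gave 4 higher and 2 lower (edgeR), where 8.95% of all genes were called higher and 7.32% lower. The 4 calls of the joint fit were each lost without any 1 of the 4 clones (adjusted p of 0.0649 to 0.262, edgeR), with unchanged sign. With spike-in scaling the differences of Socs3 (0.43), Pim1 (0.31) and Jak2 (-0.57) were not called and that of Jak1 (-0.55, adjusted p = 0.0335, edgeR) was, next to a median of -0.14 for all genes. DESeq2 called all but Jak2 (adjusted p = 0.052). The lesions differ in kind, degron against knockout, and this cannot be told apart from the gene that was hit. Embryonic stem cell markers summed to 2948 and 3002 CPM with the Yeats2 degron and to 2451 and 2495 CPM in Supt7l-/-. Primed or formative markers summed to 87.2 and 78.8 against 70.5 and 59.4 CPM, and the 2 neural markers to 12.6 and 14.2 against 22.75 and 22.0 CPM, with no overlap in either. Primitive endoderm markers overlapped, at 9.91 and 7.01 against 8.08 and 6.74 CPM. Their part in the differences was not tested.

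**Figure D5:**
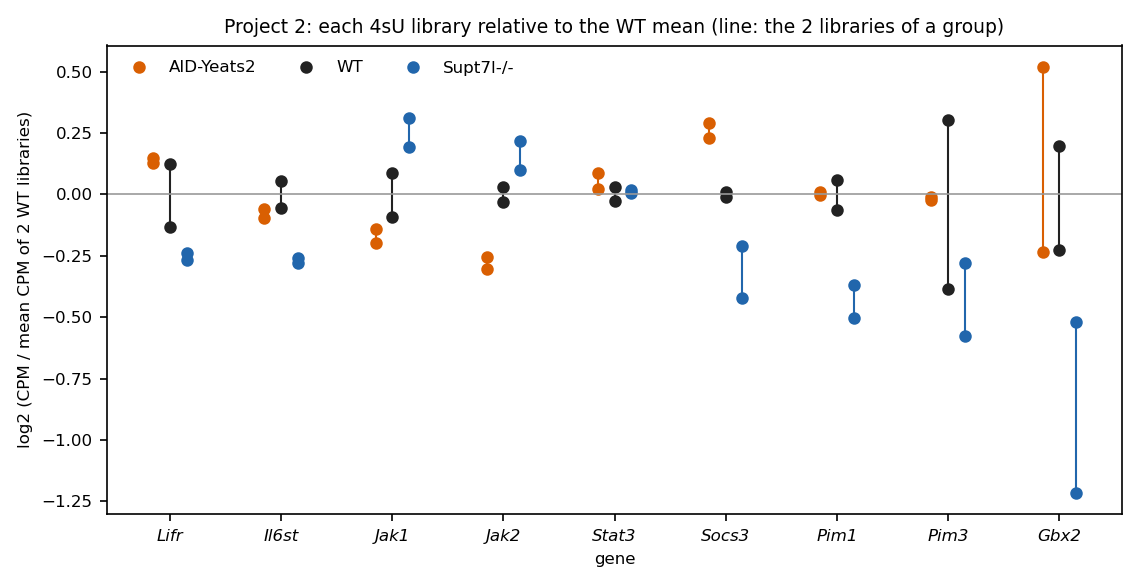
Each 4sU library of project 2 relative to the mean of the 2 WT libraries (y axis, log2 of the CPM ratio) for the 9 genes (x axis). Lines join the 2 libraries of a group. For Jak1 and Jak2 the Supt7l-/- points lie above and the AID-Yeats2 points below WT, and for Socs3 the reverse.

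Other genes of the pathway differed between these mutants as well, where 5.59% of all genes were called higher in AID-Yeats2 and 4.71% lower. Of 31 tested receptor and regulator genes, Il6ra, the IL-6 receptor gene, was higher in AID-Yeats2 than in Supt7l-/- (30.1 and 27.0 CPM against 18.3 and 16.2, WT 21.2 and 24.7, 0.72 ± 0.16, adjusted p = 0.0108, edgeR), as was Pias2 (0.38), and Gab1 was lower (-0.40). Of 17 tested STAT3 targets 4 were higher and 0 lower (DNA-binding factor genes Sall4, Klf4 and Tfcp2l1 and the histone demethylase gene Kdm3a, at 0.47, 0.47, 0.29 and 0.47). Klf4, a naive pluripotency factor gene, had 69.0 and 63.3 CPM in AID-Yeats2, 49.8 and 54.9 in WT and 50.2 and 45.1 in Supt7l-/-. Of these 7 calls, those other than Gab1 were lost with spike-in scaling, and each was lost in at least 1 fit that left out AID-Yeats2 replicate 1 or Supt7l-/- replicate 2. The list medians were -0.02 for regulators and 0.05 for targets, near the -0.01 of all genes.

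AID-Zzz3 cells showed no member past the threshold. Jak2 had 23.7 and 23.7 CPM against 26.6 and 27.5 in WT (-0.19 ± 0.13, adjusted p = 0.598, edgeR), both clones below WT as in AID-Yeats2. Lifr had 241 and 226 CPM against 205 and 222 (0.13 ± 0.10), and Stat3 111 and 119 against 110 and 103 (0.11 ± 0.10), both with the clones above WT. The other 6 members overlapped WT: Il6st had 220 and 196 CPM against 206 and 232, Jak1 87.7 and 87.3 against 106 and 84.0, and Socs3 18.9 and 26.4 against 25.6 and 21.9. Pim1 had 33.8 and 30.8 CPM against 37.3 and 33.4, Pim3 11.5 and 14.1 against 12.9 and 10.1, and Gbx2 10.5 and 8.79 against 8.02 and 9.62.

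In AID-Zzz3 edgeR called 0 of 9, where 0.984% of 14529 genes were called (0.681% higher and 0.303% lower). At an unadjusted p under 0.05 there were 0 (12.9% of all genes), and DESeq2 called 0. Clones lay above WT in 2 members (22.8% of all genes) and below in 1 (21.9%). The log2 fold changes ran from -0.19 for Jak2 to 0.16 for Pim3. With spike-in scaling Il6st (-0.43), Jak2, Pim1 and Jak1 were called lower, against 24.7% of all genes, and Lifr (-0.23), Stat3 (-0.26), Pim3 (-0.21) and Gbx2 (-0.23) turned negative. The authors' deposited table called the same 4 genes lower, at -0.40 (Il6st), -0.48 (Jak2), -0.43 (Pim1) and -0.43 (Jak1), where 35.7% of the genes with an adjusted p were called lower.

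Differences between the effects of the other 5 pairs of mutants were tested in the same way, and edgeR and DESeq2 called 0 of 9 in each. Between AID-Yeats2 and AID-Zzz3, the ATAC lesions, 0.0% of all genes were called (2.45% at an unadjusted p under 0.05, and 0 members). The difference of Jak1 there was -0.05, with a 95% interval of -0.37 to 0.28, and that of Socs3 0.32, from -0.19 to 0.82, so differences as large as those between AID-Yeats2 and Supt7l-/- lie inside the Socs3 interval and outside the Jak1 interval. Supt7l-/- minus AID-Zzz3 was 0.38 ± 0.15 for Jak1 and 0.36 ± 0.15 for Jak2 (adjusted p of 0.243 and 0.275, edgeR), the 2 members with an unadjusted p under 0.05 (15.0% of all genes). For that pair 1.24% of genes were called, 0.434% higher and 0.81% lower.

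AID-Tada3 minus Supt7l-/- gave 4 members an unadjusted p under 0.05 (10.4% of all genes), Gbx2 at 1.60 ± 0.55, Socs3 at 0.59 ± 0.24, Lifr at 0.57 ± 0.22 and Il6st at 0.51 ± 0.17, with adjusted p from 0.35 to 0.415 (edgeR). Of all genes 0.0194% were called, 0.013% higher and 0.00648% lower. Gbx2 was called higher in that pair with spike-in scaling, where 1.34% of all genes were. AID-Tada3 minus AID-Yeats2 gave 1 member an unadjusted p under 0.05 (14.3% of all genes), Jak2 at 0.39 ± 0.15 (adjusted p = 0.227, edgeR), where 1.43% of genes were called, 0.357% higher and 1.08% lower. AID-Tada3 minus AID-Zzz3 gave 0 (12.6% of all genes), where 1.04% were called, 0.207% higher and 0.836% lower. These pairs lie in different sequencing projects, each effect being taken against its own WT libraries.

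How the members moved with each other was described over the 14 4sU libraries, on log2 CPM centred on the WT mean of each project. Lifr ran with Gbx2 (Pearson's r 0.90) and with Il6st (0.88), and Jak1 with Jak2 (0.81). Jak1 and Jak2 had negative r with Pim1 (-0.56 and -0.55). Stat3 had r of 0.03 with Jak1 and 0.07 with Jak2. These libraries share lines, WT references and depth, and the values are descriptions.

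For each member the most similar of 8070 protein-coding genes with at least 10 CPM was found by Pearson's r over the same 14 libraries. It was Nphs1 for Lifr (0.97), Ebf1 for Il6st (0.97), Mycbp2 for Jak1 (0.96), Atxn10 for Jak2 (0.96) and Bcl2l1 for Stat3 (0.92). It was Slit3 for Socs3 (0.93), Mcm3 for Pim1 (0.94), Hmgn2 for Pim3 (0.88) and Cdh6 for Gbx2 (0.95). By Spearman's rho the top gene was the same for Lifr, Stat3 and Socs3 and another for the other 6. Bcl2l1, which encodes the survival protein Bcl-xL, was also on the list of reported STAT3 targets.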

How the data were processed

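Mouse gene and spike-in gene counts per library were used as deposited. Per the submitters' processing notes, the genome builds are mm10 for mouse, BDGP6 for the fly, ASM294v2 for S. pombe and sacCer3 for S. cerevisiae, and the named tools include the aligner STAR (2.5.3a), the counter HTSeq (0.6.1p1), DESeq2 (1.16.1), Bowtie2 (2.2.8), cutadapt (1.10) and bcl2fastq (2.17.1.14). Whether reads in introns were counted, and the strand setting, are not given in the sources used here. The log2 fold changes and p-values of the authors' deposited table were copied without change. The 32 columns of normalized values per library were not used.

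The 9 members and the lists of other genes were chosen with earlier results of these data known. Each mutant was compared with the WT 4sU libraries of its project with edgeR 4.0.16 (R 4.3.3): filterByExpr with a minimum count of 10, TMM, a quasi-likelihood test without replicate block, and Benjamini-Hochberg adjustment over all genes tested, with calls at an adjusted p under 0.05. WT lines were compared with the project as a block, and mutants with each other in a joint fit. The alternatives tried were scaling by spike-in counts, the size factors of DESeq2, DESeq2 1.42.0 itself, no filter, at least 50 counts, the joint fit, the replicate block and leaving out each library. A fit of project 2 alone and lengths per exon union were added after seeing the data. The labels give the same WT lines for total and 4sU RNA, so replicate numbers pair these samples, and their line differences had r = 0.457 over 14494 genes. CPM of the joint likeness search were held to a mean of at least 10. All members are named, with up to 5 called genes of each other list per comparison by smallest p, and the most similar gene of each member. Gene positions matched GENCODE M21 for 31651 of 32826 genes (96.4%). Replicates differed by more than sampling noise (mean chi-square per gene of 3.79 to 18.8). The WT pairs, each of 2 different lines, had 14.9 to 18.8, and the clone pairs of the mutants 3.79 to 9.1. The spread thus differed between WT and mutant groups, while each fit used 1 shared estimate of it. The fits were also run on simulated counts with planted changes, drawn without a difference between the WT lines. The planted changes were larger than most mutant effects given here, so this run does not check calls of small changes. Its outcome is not given here. The 95% intervals come from the fitted models.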

Additional observations from a re-analysis of the deposited data

Results flagged for a closer look

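The effects of AID-Yeats2 and Supt7l-/- differed in 4 of the 9 genes by a test of the difference itself. Of all genes 10.3% were called in that test, 5.59% higher and 4.71% lower. AID-Yeats2 minus Supt7l-/- was -0.4253 for Jak1 and -0.4422 for Jak2 on the log2 scale, so both kinase genes were lower with the Yeats2 degron. It was 0.5681 for Socs3 and 0.4351 for Pim1, so both feedback and target genes were higher there. With spike-in scaling only the call of Jak1 was kept, and with DESeq2 that of Jak2 was lost. Each call was lost when any single clone was left out, with the sign kept, and the kind of lesion differs between these lines.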

How the results depend on the processing

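Spike-in scaling turned the sign of Jak1 (-0.10), Jak2 (-0.057) and Pim3 (-0.0026) in AID-Tada3, of Lifr (-0.36), Stat3 (-0.44), Socs3 (-0.24), Pim1 (-0.49) and Gbx2 (-0.33) in AID-Yeats2, of Jak1 (-0.11), Jak2 (-0.21) and Stat3 (-0.35) in Supt7l-/-, and of Lifr (-0.23), Stat3 (-0.26), Pim3 (-0.21) and Gbx2 (-0.23) in AID-Zzz3. It also turned Stat3 in AID-Yeats2 minus Supt7l-/- (-0.10), and Stat3 (-0.075), Socs3 (-0.038) and Pim1 (-0.097) between the WT lines. Under it 3 members were called lower in AID-Yeats2 (23.5% of all genes) and 2 in Supt7l-/- (4.45%). It gave 4 lower in AID-Zzz3 (24.7%) and 1 between the WT lines (4.03%). AID-Yeats2 minus Supt7l-/- gave 0 higher (3.0% of all genes) and 1 lower (4.33%), and AID-Tada3 minus Supt7l-/- 1 higher (1.34%). Pim1 in AID-Yeats2 was -0.0044 with no filter and -0.00098 in the joint fit, and Pim3 there 0.021 with at least 50 counts. With no filter 1 member was called higher in AID-Tada3, 4 lower in Supt7l-/- and 4 higher in 4sU over total RNA (19.1% of all genes). The shares of all genes called without a filter in AID-Tada3 and Supt7l-/- are not given here, so those member counts cannot be weighed. The call in Supt7l-/- went to 0 with DESeq2 and 0 in the joint fit. DESeq2 left 1 lower in AID-Yeats2 minus Supt7l-/-, where project 2 alone gave 4 higher (8.95% of all genes). With the WT line as a replicate block 4 members were called higher in 4sU RNA (36.5% of all genes).

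Leaving out 1 library at a time gave 0 to 5 members higher in AID-Tada3, 0 to 1 higher and 0 to 1 lower in AID-Yeats2, 0 to 1 higher and 0 to 5 lower in Supt7l-/-, 0 in either direction for AID-Yeats2 minus Supt7l-/-, 0 to 2 higher in 4sU over total RNA, and 0 to 1 lower between the WT lines (leaving out a project). Signs turned in those fits for Pim3 in AID-Tada3 (-0.043 to 0.36), Pim1 (-0.062 to 0.069), Pim3 (-0.32 to 0.37) and Gbx2 (-0.23 to 0.53) in AID-Yeats2, Stat3 in Supt7l-/- (-0.015 to 0.038), Il6st (-0.17 to 0.0095), Jak1 (-0.28 to 0.050), Socs3 (-0.33 to 0.15), Pim3 (-0.011 to 0.34) and Gbx2 (-0.012 to 0.25) in AID-Zzz3, Gbx2 in 4sU over total RNA (-1.79 to 0.83), and Stat3 (-0.080 to 0.10), Socs3 (-0.13 to 0.22) and Pim1 (-0.040 to 0.10) between the WT lines. The cause of these changes was not tested. Counts of all genes called also moved between fits (next paragraph), so the member counts alone are no result about the members.

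Over the fold changes of all genes named, under the settings tried, 582 kept their direction and their side of the threshold, 72 lost a call, 45 gained one and 43 changed sign. Counts of all genes called moved by over 1.5 times, for example from 0 to 1040 higher in AID-Tada3, 59 to 1069 higher in AID-Yeats2 and 12 to 1281 higher in Supt7l-/-. With 2 libraries per group, and WT groups of 2 different lines, small changes of Gbx2 (24 to 149 counts) and Pim3 (73 to 333 counts) were the least precise.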
